A study of Mus musculus with 3 samples.

Results

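The expression of 10 neuronal cytoskeleton genes was described in 3 mouse neuroblastomas by single-cell RNA sequencing. The members were taken by name (Nefl, Nefm, Tubb3, Tubb2b, Stmn2, Stmn3, Elavl3, Elavl4, Gap43 and Mllt11) and all 10 were found among the 31053 genes of the count matrices. The tumors came from TH-MYCN mice, in which the promoter of Th (tyrosine hydroxylase) drives a MYCN transgene in cells of the sympathetic lineage. All mice were heterozygous for the transgene, the labels name no treatment and no tumor-free tissue, and the 3 tumors form 1 group. Each tumor came from a mouse of its own, aged 62 days for tumor 1, 79 days for tumor 2 and 63 days for tumor 3. The strain of the mice is not given in the sources used here.

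Sympathetic neuroblasts and the neuroblastomas that arise from them are cells of the neural crest that carry part of the program of a differentiating neuron. Neurofilament subunits build the intermediate filaments of axons, neuronal β-tubulins form their microtubules, and stathmins bind tubulin and destabilise microtubules. Gap43 is a membrane-associated protein of growing axon tips, Elavl3 and Elavl4 are neuronal RNA-binding proteins of the Hu family that stabilise messages of differentiating neurons, and Mllt11 is a small protein abundant in developing neurons. The name of the group therefore fits the filament, tubulin, stathmin and growth cone genes in the strict sense, while the Hu proteins and Mllt11 are neuronal genes that are not structural parts of the cytoskeleton.

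For each tumor, unique molecular identifiers (UMIs, 1 per captured RNA molecule) were counted per gene and droplet. The kept cells were the droplets that the authors retained, 1914, 1221 and 2515 in tumors 1, 2 and 3, or 58.8%, 28.2% and 41.7% of all barcodes. Their median depth was 4282.5, 1594 and 1816 UMIs. Tumors 1 and 2 shared 3 barcodes, tumors 2 and 3 shared 1 and tumors 1 and 3 shared 0. Clusters were named from marker genes with the members and all listed genes held out of the clustering genes. Clusters 3 and 8, which mixed classes, were then split with the marker genes, but not the members, added back. A part of 70 cells of tumor 1 stayed unnamed and entered no level or fit. In all, 3355 cells (301, 944 and 2110) were called tumor-like. The name rests on 10 markers of sympathetic and chromaffin cells, such as Th and Dbh of catecholamine synthesis and Chga and Chgb of secretory granules, whose summed level in the tumor-like cells was 2292, 2324 and 2509 CPM (the count of a gene scaled to a fixed total of UMIs, counts per 1e6). Of the Schwann cell markers in the tumor-like cells, Cdh19 and S100b were at 0 and the list summed to 4.99 to 12.1 CPM, macrophage markers summed to 79.8 to 242 CPM and globin and other erythroid markers to 1543 to 6290 CPM. Tumor 1 stood apart from the other tumors in its tumor-like cells, with a median depth of 1015 UMIs and a median of 0.197% mitochondrial UMIs, against 1541 and 1812 UMIs and 2.59% and 2.16% in tumors 2 and 3.

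Every member was found in the tumor-like cells of every tumor. The 3 tumors differed little for the tubulins and for Stmn2 and more for the neurofilaments and the Hu genes, with coefficients of variation over tumors of 5.31% (Stmn2) to 38.5% (Elavl4). In the other cell classes the members were low in tumor 1 but not in tumors 2 and 3. In tumor 1, the tumor-like cells were above each of the 11 other classes for 10 of 10 members, with a median fold over their mean of 19.1. In tumors 2 and 3, where 5 and 8 other classes had enough cells, the median fold was 2.34 and 1.77. The tumor-like cells were above all of those classes for 9 and 5 of the 10 members. These folds and counts are thus over different sets of classes in each tumor. With 1 sum per class and tumor, the difference of the folds between tumors was not tested.

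**Figure D1:**
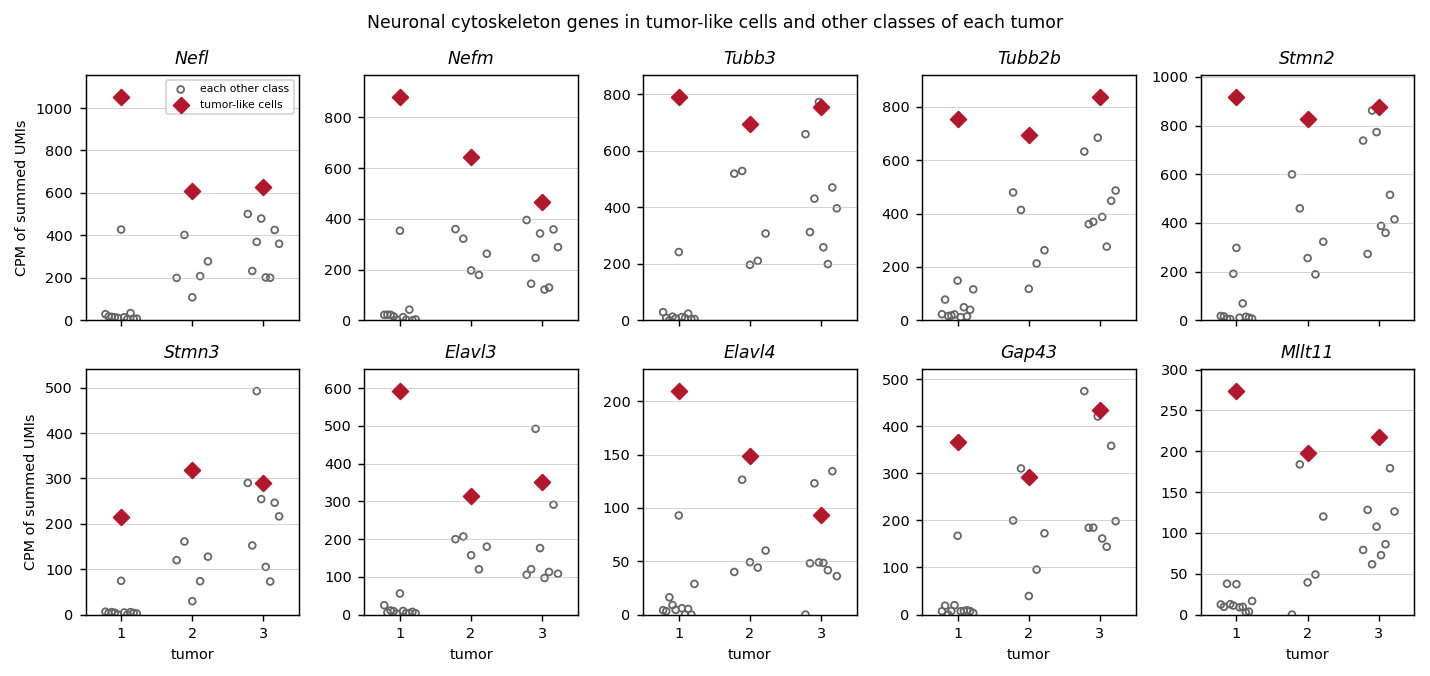
Level of each member (CPM of summed UMIs, linear axes starting at 0) in each tumor, with tumor-like cells as filled diamonds and each other class of at least 10 cells as an open circle. In tumor 1 the circles lie near 0 apart from few, such as the erythroid-like class at 427 CPM of Nefl, and in tumors 2 and 3 they spread up to the diamonds, as for Tubb3 in tumor 3 (755 CPM in tumor-like and 773 CPM in T cell-like cells).

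Sequences upstream of the members were taken from a RefSeq table of promoters on the mouse assembly GRCm38.p6, which held 5 of the 10 members. Its windows reach from 250 bases before to 50 bases after each start in that table, which for Tubb3 differs from the gene start given below. 3 of them are shown as examples, and the other members of the table, Elavl4 and Mllt11, are given as counts only. The E-box was marked because the members were high in the same cells and because MYCN, the transgene of these mice, is known to bind it. The E-box CANNTG is printed in capitals where it occurs on either strand. The strand, the start and the end are chr8:123411303-123411602 (+) for Tubb3, chr2:181314451-181314750 (-) for Stmn3 and chr9:22051974-22052273 (-) for Elavl3, and each sequence runs 5′ to 3′ on the gene's strand.
Tubb3: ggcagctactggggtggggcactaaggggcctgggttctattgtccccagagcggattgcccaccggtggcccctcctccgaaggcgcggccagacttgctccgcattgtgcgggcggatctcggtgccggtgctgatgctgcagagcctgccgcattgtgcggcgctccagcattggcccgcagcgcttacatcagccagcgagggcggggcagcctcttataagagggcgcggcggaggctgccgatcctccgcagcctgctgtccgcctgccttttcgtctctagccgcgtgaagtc
Stmn3: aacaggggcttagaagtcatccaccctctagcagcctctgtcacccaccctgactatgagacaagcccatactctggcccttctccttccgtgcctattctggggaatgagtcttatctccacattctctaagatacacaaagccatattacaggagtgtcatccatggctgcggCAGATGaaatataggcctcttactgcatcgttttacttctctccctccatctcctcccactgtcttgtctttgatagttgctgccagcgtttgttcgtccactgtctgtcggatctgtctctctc
Elavl3: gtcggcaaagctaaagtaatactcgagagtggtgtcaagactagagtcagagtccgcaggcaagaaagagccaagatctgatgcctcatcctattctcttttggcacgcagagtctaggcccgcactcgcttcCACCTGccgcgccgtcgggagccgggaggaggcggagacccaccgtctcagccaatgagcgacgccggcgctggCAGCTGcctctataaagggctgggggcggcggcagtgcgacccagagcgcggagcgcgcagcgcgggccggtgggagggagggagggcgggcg
The Tubb3 window held 0, the Stmn3 window 1 and the Elavl3 window 2 matches to CANNTG, a motif found in 72.3% of the 32851 promoters of the table. The windows of Elavl4, which partly overlap, held 0, 4, 4 and 1 matches, and that of Mllt11 held 0. Its form CACGTG, which is contained in CANNTG and which MYC proteins are known to prefer, was found in 0 of the windows of the 5 members and in 7.15% of all promoters. GGGCGG, the core of a GC box, occurred 2 times in the window of Tubb3, 2 times in that of Elavl3 and 5 times in that of Mllt11. It was found in 35.7% of all promoters. TATAAA occurred 1 time in the window of Elavl3 and in 13.6% of all promoters. These counts describe letters in short windows and say nothing of binding.

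In the test over all genes, 9 of the 10 members were called higher in tumor-like cells than in the mean of the other classes at an adjusted p under 0.05, where 16.9% of the 10867 genes tested were called higher and 7.83% lower. The test used UMIs summed per tumor and class (27 sums of 12 classes) and edgeR's quasi-likelihood test with Benjamini-Hochberg adjustment over all genes. Its mean of the other classes was taken on the log scale with equal weight per class, unlike the means of CPM given below. Classes near 0 therefore widen the fitted fold. Nefm, for example, had 0 UMIs in plasma cell-like and 1 UMI in mesothelial-like cells of tumor 1. The plasma cell-like, mesothelial-like and erythroid-like classes had enough cells in tumor 1 only. The NK cell-like, plasmacytoid dendritic-like and CAF-like (fibroblast) classes had enough in tumors 1 and 3 only. Class and tumor therefore cannot be told apart in the part of the fold that comes from the classes of tumor 1 alone. The log2 fold changes of the members ran from 2.10 (Tubb2b) to 3.54 (Nefm), with a median of 2.73, against a median of 0.16 over all genes tested. 0 members were called lower. On simulated data this contrast called more unchanged genes than its threshold allows, so calls with an adjusted p close to 0.05 are uncertain. With a tumor left out, 6 members were called without tumor 1, where 4.43% of all genes tested were called higher, 5 without tumor 2 (17% of all genes) and 10 without tumor 3 (10.8%). With all other cells of a tumor in 1 sum 1 member (Elavl4) was called (10.6% of all genes), and on the authors' corrected counts with limma 3 were (7.08%).

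Nefl and Nefm encode the light and the medium subunit of neurofilaments and lie at chr14:68083863-68089095 (+) and chr14:68082590-68124846 (-) of GRCm38. The annotated gene body of Nefl thus lies within that of Nefm, on the opposite strand. The sources used here do not state whether strand was used in counting, so UMIs in the shared stretch could belong to either gene. Nefl was measured at 1053, 609.6 and 627 CPM in tumor-like cells of tumors 1, 2 and 3 (763 ± 251, SD, n = 3) and at 53.1, 239 and 346 CPM in the mean of the other classes. Tumor 1 was thus the highest of the tumors in its tumor-like cells and the lowest in its other cells. Nefl was higher in tumor-like cells in the fit, with a log2 fold change of 2.78 ± 0.74 (SE, adjusted p = 0.010).

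Nefm showed the same order of tumor 1 against the others in both cell groups. Its levels were 881, 645 and 465 CPM in tumor-like cells (664 ± 209, SD, n = 3), and 45.0, 264 and 253 CPM in the mean of the other classes. Its log2 fold change of 3.54 ± 0.84 was the highest of the members (adjusted p = 0.0058). In all 3 tumors, tumor-like cells were above each other class for both neurofilaments. The nearest classes in tumors 2 and 3 were T cell-like cells at 402 CPM of Nefl (tumor 2) and B cell-like cells at 501 CPM of Nefl (tumor 3), so the class order was kept with narrow margins there.

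Tubb3 (chr8:123411424-123422015, +) encodes neuronal β-tubulin of class III, widely used as a marker of early neurons. It varied little between the tumors, at 791, 695 and 755 CPM in tumor-like cells (747 ± 48.6, SD, n = 3). The other classes had means of 31.7, 352 and 437 CPM. In tumor 3, the T cell-like cells reached 773 CPM and stood above the tumor-like cells. The fit gave a log2 fold change of 2.68 ± 0.89 (adjusted p = 0.031), and the call was lost without tumor 2 (3.21 ± 1.13).

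Tubb2b (chr13:34126748-34130466, -) encodes a β-tubulin of developing neurons whose coding sequence is nearly the same as that of Tubb2a, so its counts are uncertain where reads fell in shared sequence. It stood at 755, 696 and 838 CPM in tumor-like cells (763 ± 71.2, SD, n = 3), with other-class means of 48.6, 297 and 456 CPM. Tumor-like cells were above each other class in all tumors. The log2 fold change of 2.10 ± 0.71 was the lowest of the members (adjusted p = 0.035). The call was lost without tumor 1 (0.91) and without tumor 2 (2.58).

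Stmn2 (chr3:8509360-8561606, +), a stathmin of growing axons, had the narrowest spread over tumors, at 918, 825 and 877 CPM in tumor-like cells (873 ± 46.3, SD, n = 3). The mean of the other classes was 58.5, 365 and 540.2 CPM. Although tumor-like cells were above each other class in every tumor, Stmn2 was the member that did not pass the test, with a log2 fold change of 2.20 ± 0.86 and a 95% interval of 0.42 to 3.98 (adjusted p = 0.065). A fit with each tumor as a block removes differences shared by all classes of a tumor. In it Stmn2 was called higher with a log2 fold change of 2.80 ± 0.47 (adjusted p = 3.5e-05), as were the other members. The block leaves in place that the Stmn2 fold was uneven between tumors (15.7, 2.26 and 1.62 in tumors 1, 2 and 3). Several sums of other classes also came from the same tumor. The error and adjusted p of the block fit therefore do not measure how far the fold varies between tumors.

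Stmn3 (chr2:181306459-181314500, -), its neuronal relative, was the only member with its lowest tumor-like level in tumor 1, at 215 CPM against 319 CPM in tumor 2 and 289.6 CPM in tumor 3 (274 ± 53.6, SD, n = 3). Its means in the other classes were 9.86, 102 and 229 CPM. In tumor 3, 2 other classes were above the tumor-like cells, the NK cell-like cells with 492 CPM among them, a sum of 11 cells. The fit gave 2.85 ± 1.01 (adjusted p = 0.042), and the call was lost without tumor 1 (0.74) and without tumor 2 (3.14).

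Elavl3 (chr9:22015005-22052023, -) and Elavl4 (chr4:110203722-110351909, -) encode HuC and HuD. Elavl3 was at 592, 313 and 352 CPM in tumor-like cells (419 ± 151, SD, n = 3) and at 12.3, 173 and 188 CPM in the mean of the others. Its fold in tumor 1, 48.2, was the widest of any member, and its folds in tumors 2 and 3 were 1.81 and 1.87. In the fit it was higher in tumor-like cells by a log2 fold change of 2.92 ± 0.78 (adjusted p = 0.011).

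Elavl4 was at 209, 149 and 93.5 CPM in tumor-like cells (151 ± 58.0, SD, n = 3), the widest relative spread over tumors of any member. The other classes had means of 15.4, 63.9 and 60.1 CPM. Neutrophil-like cells of tumor 3 reached 134 CPM and were 1 of 2 classes above the tumor-like cells there. The fit gave the lowest adjusted p of the members, with a log2 fold change of 3.45 ± 0.69 (adjusted p = 0.0025), a call that was lost without tumor 1 (1.10).

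Gap43 (chr16:42248442-42340651, -) was at 367, 293 and 434 CPM in tumor-like cells (365 ± 70.4, SD, n = 3) and at 23.2, 163 and 266 CPM in the other classes. T cell-like cells of tumor 2 (310 CPM) and B cell-like cells of tumor 3 (475 CPM) were above the tumor-like cells of their tumor. Its log2 fold change was 2.34 ± 0.83 (adjusted p = 0.042), a call lost without tumor 1 (0.75) and without tumor 2 (2.85).

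Mllt11 (chr3:95219135-95232171, -) was at 274, 198 and 217 CPM in tumor-like cells (230 ± 39.3, SD, n = 3), with means of 14.7, 78.4 and 105 CPM in the other classes. It was above all other classes in every tumor and kept the widest fold in tumor 3, at 2.07. It was higher in the fit by 2.52 ± 0.62 on the log2 scale (adjusted p = 0.0071). The gene body of Mllt11 overlaps that of Cdc42se1, to which 1509 UMIs were counted in the kept cells against 1688 for Mllt11.

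**Figure D2:**
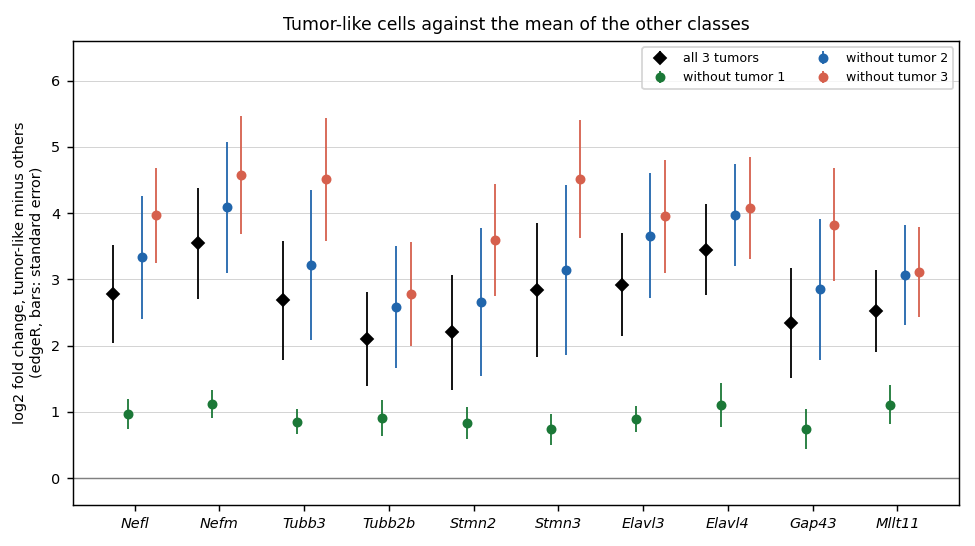
Log2 fold change of each member, tumor-like cells minus the mean of the other classes, from edgeR fits with all 3 tumors and with each tumor left out. Points are the fitted values and bars 1 SE. Without tumor 1 the values fell to between 0.74 and 1.12, and with all tumors they lie between 2.10 and 3.54.

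The fits without tumor 1 gave all members log2 fold changes of 0.74 to 1.12, those without tumor 2 gave 2.58 to 4.09 and those without tumor 3 gave 2.78 to 4.57. Leaving out tumor 1 thus cut the fold of each member, as the levels per tumor show. The 6 members called without it were Nefl, Nefm, Tubb3, Stmn2, Elavl3 and Mllt11.

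The levels in the other classes were next set against those of the tumor-like cells of the same tumor. In tumor 1, the median over members of the level in percent of tumor-like cells was 0.791% in mesothelial-like cells, 0.818% in plasmacytoid dendritic-like cells, 1.57% in endothelial-like and macrophage-like cells, 1.76% in T cell-like cells, 2.47% in neutrophil-like cells and 2.80% in B cell-like cells. In tumor 2 it was 24.1% in endothelial-like, 29.9% in macrophage-like, 42.5% in neutrophil-like, 59.8% in B cell-like and 66.0% in T cell-like cells. In tumor 3 it ran from 32.5% in macrophage-like cells to 82.0% in B cell-like cells, with endothelial-like cells at 35.2%, T cell-like cells at 79.1% and neutrophil-like cells at 79.7%. All 5 classes measured in every tumor were therefore below 3% in tumor 1 and above 24% in tumors 2 and 3.

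T cells, B cells, neutrophils and macrophages are not known as sources of neurofilament RNA. Droplet libraries can hold free RNA from broken cells, and the authors stated that they removed such ambient RNA before making their normalized values. In the corrected counts behind those values, in which the totals of deep and shallow cells were also evened out, the median fold of the members was 18.0, 2.17 and 2.11 in tumors 1, 2 and 3, and the median level of the other classes was 1.93%, 41.0% and 46.1% of that in tumor-like cells. The tumor markers, which named the tumor-like class, had medians of 1.02%, 43.4% and 38.1%. The share of cells with at least 1 UMI of a tumor marker was 13.9% to 27.3% in the 5 classes of tumor 1 measured in every tumor, 80.0% to 87.7% in those of tumor 2 and 72.7% to 100% in those of tumor 3. The part of free RNA in the levels of the members was not tested.

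The number of member UMIs per cell was compared with the depth of the cells. The tumor-like cells held a mean of 11.6, 9.07 and 9.35 UMIs of the 10 genes together in tumors 1, 2 and 3. Their medians were 6, 7 and 9, so tumor 1 had the highest mean and the lowest median. Among its 301 tumor-like cells, the 2 highest cells for a member held 10.7% (Elavl4) to 22.6% (Stmn3) of that member's UMIs. In tumor 2 this share was 3.56% (Stmn2) to 7.81% (Elavl4), and in tumor 3 it was 0.598% (Tubb2b) to 2.14% (Elavl4). The other classes held 4.53 to 6.05 UMIs per cell in tumor 2 and 5.36 to 8.13 in tumor 3, while their median depth ranged over 2.14 and 2.28 times. In those tumors the class medians were 4 to 6 and 5 to 7 member UMIs per cell, and the highest class mean was 1.33 and 1.52 times the lowest. In tumor 1 the other classes held 0.470 (neutrophil-like) to 5.12 (mesothelial-like) UMIs per cell over a depth range of 51.7 times, with class medians of 0 to 3.

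**Figure D3:**
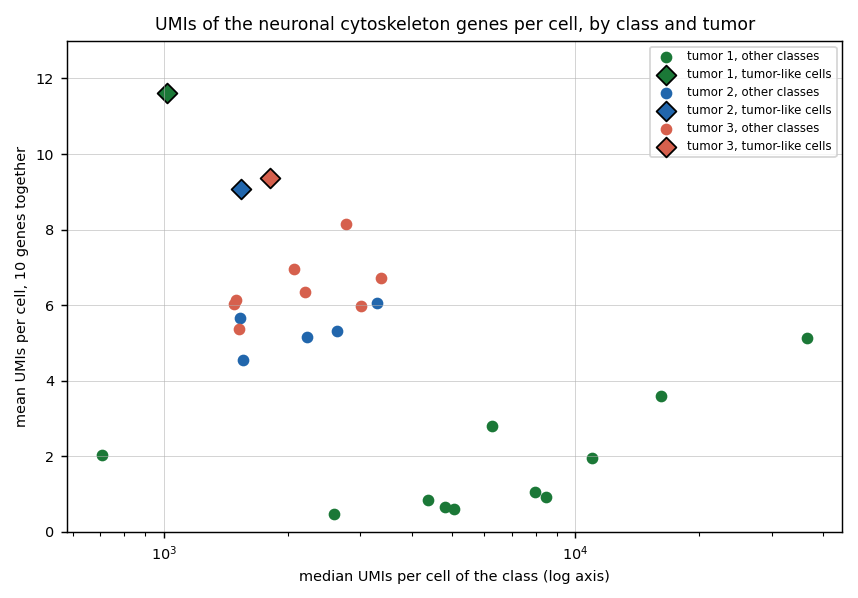
Mean number of UMIs of the 10 members per cell (vertical axis, from 0) against the median UMIs per cell of the class (log axis), with tumor-like cells and other classes marked separately for each tumor. The other classes of tumors 2 and 3 lie in a band between 4.53 and 8.13 UMIs per cell, and those of tumor 1 lie lower, between 0.470 and 5.12.

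After thinning every cell to 500 UMIs, so that shares of cells could be compared across depths, Nefl was found in 37.9% of the tumor-like cells of tumor 1 (exact binomial 95% interval 32.4% to 43.6%), 23.5% (20.8% to 26.4%) in tumor 2 and 25.6% (23.7% to 27.5%) in tumor 3. In T cell-like cells the share was 0.709%, 18.8% and 18.8%, at median depths of 5067, 1533.5 and 1477 UMIs before thinning. The intervals of the T cell-like cells in tumors 2 (8.95% to 32.6%) and 3 (10.4% to 30.1%) overlapped those of the tumor-like cells. Without thinning, Nefl was found in 60.5%, 58.1% and 65.5% of tumor-like cells and in 6.38% of T cell-like cells of tumor 1 and 53.6% of those of tumor 3. The intervals cover counting error only.

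At least 1 of the 10 members was found in 91.0%, 89.7% and 90.8% of the thinned tumor-like cells, with a median of 2 members per cell in each tumor. The share among macrophage-like cells was 5.30%, 64.2% and 55.2%, and among T cell-like cells 5.67%, 83.3% and 85.5%. The tumor-like shares were thus close to each other over tumors, and the shares of the other classes were not. At 500 UMIs per cell, Stmn2 was found in 0 of 141 T cell-like cells of tumor 1, which allows a share of up to 2.13% at that depth, and in 27.1% and 30.4% of those of tumors 2 and 3. At full depth the cells of tumor 1 were not free of it, with a UMI in 4 of 141 cells (2.84%).

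Some cells of tumor 1 went against the low level of their class. Endothelial-like cells had 191 CPM of Stmn2, or 20.8% of the tumor-like level, from 87 UMIs in 9 of 44 cells. Of these UMIs, 42 and 32 came from 2 cells, which held 161 and 71 UMIs of endothelial markers, 0 and 1 UMI of tumor markers and only 3 and 4 UMIs of the other members. Without these 2 cells the level was 32.2 CPM, or 3.51%. These cells were singled out after their values were seen.

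Tubb2b was spread more widely in tumor 1. In plasmacytoid dendritic-like cells it was at 116 CPM, or 15.4% of the tumor-like level, from 105 UMIs in 52 of 89 cells, and in CAF-like cells (cancer-associated fibroblasts) at 77.6 CPM, or 10.3%, from 74 UMIs in 23 of 48 cells. The highest cell of the plasmacytoid dendritic-like class held 6 of these UMIs, so the level was not carried by few cells. The plasmacytoid dendritic-like cells with a UMI of Tubb2b held a mean of 0.846 UMIs of the other members and those without held 0.676. For CAF-like cells these means were 3.35 and 0.880, at median depths of 29325 and 11621 UMIs. In macrophage-like cells of the same tumor Tubb2b was at 11.6 CPM, and the interval of its count (9.08 to 14.7 CPM, exact Poisson, counting error only) lay below those of the plasmacytoid dendritic-like (94.8 to 140.3 CPM) and CAF-like (60.9 to 97.4 CPM) cells. With 1 tumor holding enough such cells at a low level of the other members, this is a difference between classes of that library.

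The erythroid-like class of tumor 1 stood highest among its other classes, with a median of 33.5% of the tumor-like level over members. Its 50 cells had a median of 708 UMIs, a median of 1.64% globin UMIs and a tumor marker UMI in 32.0% of the cells. Its name thus rests on weak globin signal in this tumor. When the class was left out, a setting chosen after seeing the data, the members had log2 fold changes of 2.20 to 3.92.

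Among macrophage-like cells, a cluster of 133 cells was led by C1qa, C1qb, C1qc and Cd5l. In it Stmn2 was at 33.2, 391 and 951 CPM and Nefl at 22.1, 573 and 579 CPM in tumors 1, 2 and 3. In the remaining macrophage-like cells Nefl was at 14.1, 170 and 141 CPM and Stmn2 at 10.1, 167 and 266 CPM in tumors 1, 2 and 3. The cluster of 133 cells was shallow, with a median of 1343 UMIs against 5501.5 and 10918 in the other macrophage-like clusters. The part of depth in its levels was not tested. Without this cluster, again a setting chosen after seeing the data, the members had log2 fold changes of 2.14 to 3.58.

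The members were then followed through the tumor-like clusters, as 18 sums of at least 20 cells per cluster and tumor. Levels differed between the highest and the lowest sum by 1.52 times for Tubb3 and 1.62 times for Tubb2b, up to 4.11 times for Elavl4 and 4.70 times for Stmn3. The lowest sum of Stmn3, 102 CPM from 9 UMIs, was in cluster 0 of tumor 1. The highest, 481 CPM from 144 UMIs, was in cluster 7 of tumor 2, a cluster led by the long noncoding RNA Meg3 and by Dlk1. The lowest sum of Elavl4, 77.2 CPM in a part of cluster 8 of tumor 3, also held 9 UMIs. Ranges that rest on these low sums carry a wide counting error, also the range of Stmn3 within tumor 1. Within tumor 3 the clusters differed in Stmn3 by 1.21 times only, with cluster 7 lowest, and within tumors 1 and 2 by 2.99 and 2.58 times, with cluster 7 highest. The range of Elavl4 was mostly one between tumors, since within a tumor its clusters differed by 1.52 to 1.74 times.

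**Figure D4:**
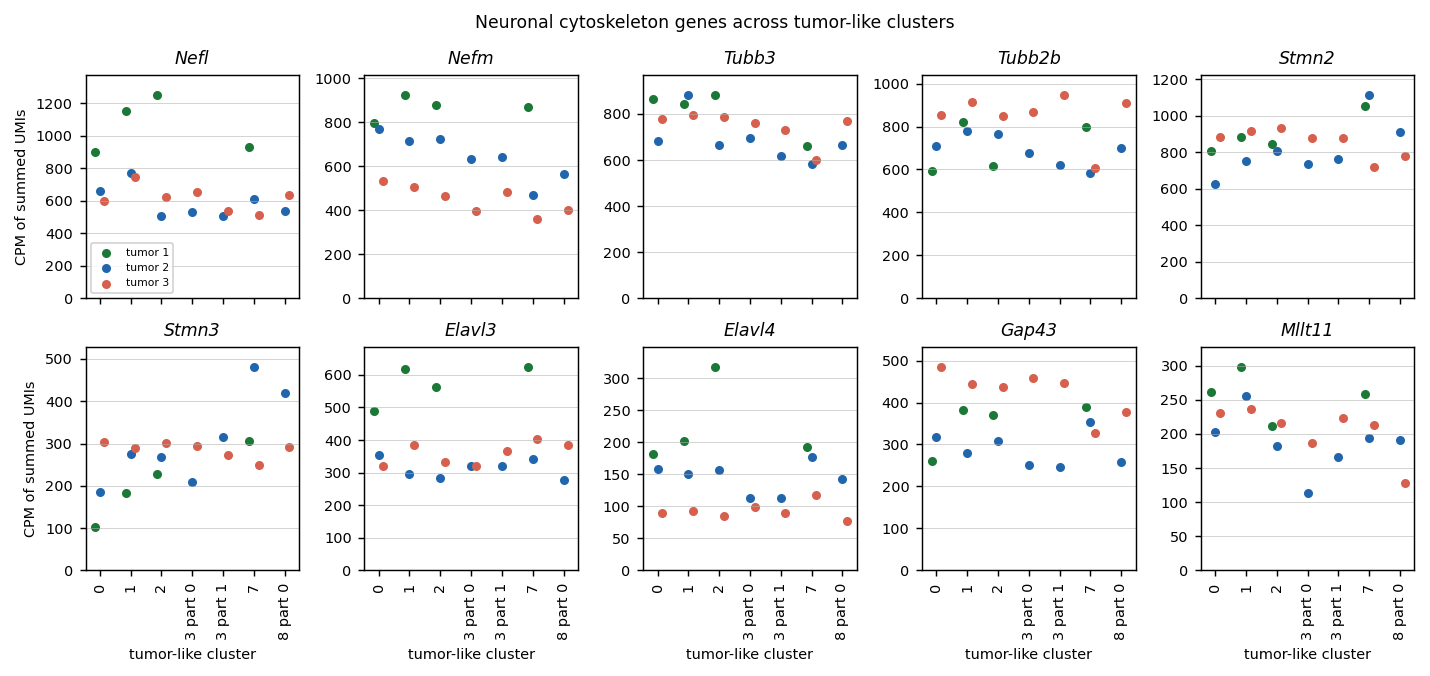
Level of each member (CPM of summed UMIs, linear axes from 0) in each tumor-like cluster, with 1 point per tumor. Cluster 7 of tumors 1 and 2 holds the highest points of Stmn3, 306 and 481 CPM in those tumors, and cluster 7 of tumor 3 lies at 250.3 CPM.

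Over these 18 sums, the members did not move as a block. Nefl correlated with Elavl3 at r = 0.82, Nefm with Elavl4 at 0.76 and Tubb2b with Gap43 at 0.68, while Stmn3 and Tubb3 correlated at -0.50 and Tubb2b and Elavl4 at -0.58. The sums share their tumors and differ in depth, and these values are descriptions with no test. The genes most alike to the mean of the members over the 27 sums of classes and tumors were Pcsk1n (r = 0.979), Bex2 (0.975), Uchl1 (0.974), Ttc9b (0.971) and Dlk1 (0.971). Over the 18 sums of tumor-like clusters they were Atp6v1a (0.847), Clint1 (0.822), Cd24a (0.821), Grsf1 (0.809) and Ubxn7 (0.805).

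Further genes of the neuronal cytoskeleton and its transport were tested from a list of 24, of which 23 passed the filter on low counts (Prph, peripherin, did not). Of these, 19 were higher in tumor-like cells and 0 lower, with a median log2 fold change of 2.98, again against 16.9% and 7.83% of all genes. Nefh, the heavy neurofilament subunit, was at 137, 112 and 73.7 CPM in tumor-like cells, against a mean of 20.5 CPM over the other classes. In the fit, whose mean of the others is on the log scale, Nefh was higher by a log2 fold change of 5.13 ± 0.98 (adjusted p = 0.0023). Mapt, the tau protein of axonal microtubules, was higher by 3.99 ± 1.10 (adjusted p = 0.013), Dcx, doublecortin of migrating neurons, by 3.81 ± 0.73 and Stmn4 by 3.60 ± 0.93. The 4 tested genes that did not pass were Map1b (1.79 ± 0.70), Dpysl3 (1.71 ± 0.65), Basp1 (1.29 ± 0.64) and Tubb2a (1.14 ± 0.50).

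Relatives of the members that most cell types express moved in both directions. Of 13 tested, 4 were higher in tumor-like cells and 2 lower, where 16.9% and 7.83% of all genes were, and their median log2 fold change was 0.56. The 4 higher genes were Stmn1 (1.96 ± 0.60), the stathmin of dividing cells, Tuba1b (1.43 ± 0.38), Tubb5 (1.40 ± 0.40) and Dpysl2 (1.37 ± 0.38). The lower genes were Vim, the intermediate filament protein of mesenchymal and blood cells, at 83.0 CPM in tumor-like cells and 1068 CPM in the mean of the others (-3.38 ± 1.05, adjusted p = 0.023), and the α-tubulin gene Tuba1c at 7.65 and 34.9 CPM (-2.61 ± 0.70, adjusted p = 0.011).

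The relation of the members to cell division was examined within the tumor-like cells. Each cell was thinned to 500 UMIs, UMIs of 96 S phase and G2/M genes were counted among them, and cells were split within each tumor at 2 limits into a low, a middle and a high set. The low and high sets held 118 and 99 cells in tumor 1, 458 and 267 in tumor 2 and 897 and 659 in tumor 3. The mean number of cycling UMIs was 3.33 and 12.2 in tumor 1, 4.56 and 10.8 in tumor 2 and 4.62 and 10.7 in tumor 3. The variance of the cycling UMIs was 2.60, 1.29 and 1.20 times their mean, where counting alone gives a variance equal to the mean. Of the tumor-like cells, 84 of 301, 298 of 944 and 768 of 2110 lay within 1 UMI of the upper limit.

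0 members were called higher and 0 lower in high-cycling than in low-cycling cells, in a test in which 0.656% of the 7012 genes were called higher and 0.357% lower (edgeR on summed counts of whole cells, with the tumor as a block). At an unadjusted p under 0.05, 1 member (Stmn3) and 419 of all genes differed, and the alternatives had little to call, since DESeq2 called 6 genes higher and 8 lower and limma on corrected counts called 0 genes of any kind. Of the cycling genes that define the sets, 40 of the 95 tested were called higher, along with 6 other genes. The 95% intervals of the members ran from a log2 fold change of -0.58 (the lower bound of Stmn3) to 0.44 (the upper bound of Elavl4). Changes beyond 0.670 to 1.36 times between these sets thus lay outside every member's interval. The sets were only partly separated, as the 95 tested cycling genes had a median log2 fold change of 0.60. The intervals therefore do not bound the difference between cycling and resting cells. The median of the members was 0.01 and their lowest adjusted p was 0.75 (Stmn3).

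Nefl was at 839, 581 and 611 CPM in low-cycling cells and at 1284, 652 and 649 CPM in high-cycling cells of tumors 1, 2 and 3. It was above in the high set of all 3 tumors, with the middle set between, and its log2 fold change was 0.21 ± 0.12 (95% interval -0.02 to 0.44). Nefm, at 796, 600.2 and 465 CPM and then 1067, 699 and 465 CPM, gave 0.14 ± 0.12. Elavl4 gave 0.14 ± 0.15, from 194, 125 and 99.4 CPM in the low sets and 248, 168 and 95.2 CPM in the high sets.

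Stmn3 lay on the other side. Its level was 314, 320.6 and 307 CPM in low-cycling and 135, 319 and 283 CPM in high-cycling cells, which is below in the high set of all 3 tumors but by 0.01 on the log2 scale in tumor 2. Its log2 fold change was -0.30 ± 0.14 (95% interval -0.58 to -0.03, adjusted p = 0.75). Stmn2, at 1136, 862 and 859 CPM and then 814, 814 and 883 CPM, gave -0.21 ± 0.11, and Elavl3 gave -0.16 ± 0.12. The remaining members, Gap43 (0.04 ± 0.13), Mllt11 (0.01 ± 0.14), Tubb3 (0.01 ± 0.12) and Tubb2b (-0.04 ± 0.12), differed between the sets by less than their error.

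**Figure D5:**
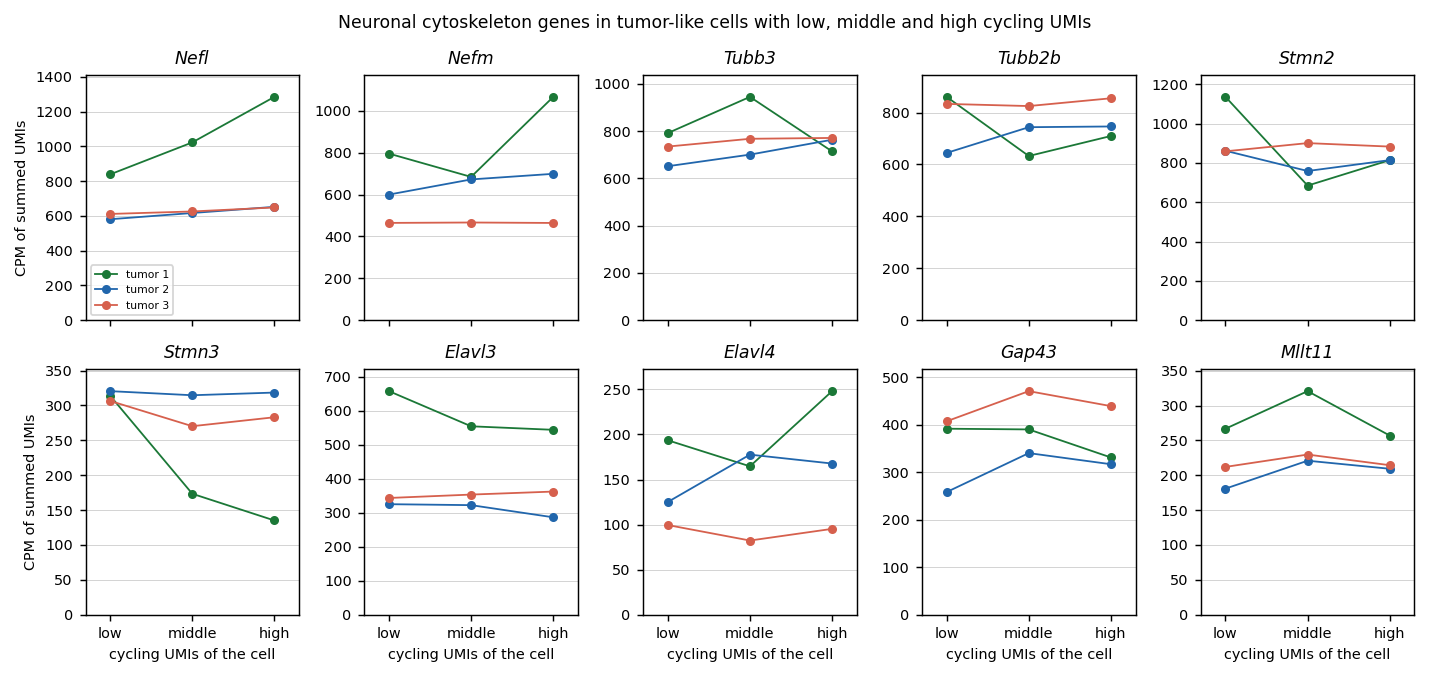
Level of each member (CPM of summed UMIs, linear axes from 0) in tumor-like cells with low, middle and high numbers of cycling UMIs, 1 line per tumor. Stmn3 of tumor 1 runs from 314 CPM in the low to 135 CPM in the high set, Stmn2 of tumor 3 is nearly level (859 and 883 CPM), and in tumor 2 Elavl4 runs from 125 to 168 CPM and Gap43 from 258 to 317 CPM.

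Taken as a sum, UMIs of the 10 members per 500 were 2.95, 2.76 and 2.77 in the low, middle and high sets of tumor 1, 2.25, 2.35 and 2.47 in tumor 2, and 2.40, 2.48 and 2.52 in tumor 3. Over single cells, member UMIs and cycling UMIs correlated at r = -0.05 (n = 301), 0.04 (n = 944) and 0.02 (n = 2110), with both counts drawn from the same 500 UMIs. The sets differed in other ways too. Median depth in tumor 1 was 872.5 UMIs in the low and 1293 in the high set, the median share of mitochondrial UMIs in tumor 2 was 3.56% and 1.67%, and globin made up 0.276% and 0.014% of the UMIs there. The part of these differences in the levels of the members was not tested. Of the further neuronal cytoskeleton genes 0 of 23 tested, and of the widely expressed relatives 0 of 12 tested, were called in either direction.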

How the data were processed

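Whole tumors of 3 TH-MYCN mice, 1 per mouse, were dissociated and profiled with the 10x Genomics Chromium 3′ kit. The submitters' processing notes name Cell Ranger 3.1.0, Seurat 3.1.5 and the build mm10. The authors deposited raw UMI counts for every called barcode. They also deposited normalized values, for which they stated removal of ambient RNA, doublets and cells beyond tumor-specific quality limits. Judged from its values, what the authors deposited is the natural log of 1 plus a whole number, with totals evened out between deep and shallow cells. These whole numbers are called corrected counts here, and the tool behind them is not given in the sources used here. That matrix defined the kept cells and served as an alternative for levels and folds. Raw counts gave all other values, and no further doublet removal was run.

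Kept cells were clustered with Seurat 5.3.0 in R 4.3.3 (2000 variable genes with 246 listed genes held out, 30 dimensions, 20 neighbors, a resolution of 1), and clusters were named "X-like" from markers. Counts of at least 10 cells were summed by tumor and class, filtered with filterByExpr, scaled by TMM and fitted with edgeR 4.0.16 (quasi-likelihood test, Benjamini-Hochberg adjustment, threshold 0.05). Tumor-like sums were set against the mean of the other classes on the log scale, each with equal weight and with no block. The cycling sets were fitted with the tumor as a block. Where a class had 1 sum, its spread was taken from the other classes. The fits were tested on simulated data, in which the contrast of classes called more unchanged genes than its threshold allows. Alternatives used DESeq2 1.42.0, limma 3.58.1 and other settings. Rare classes have little depth, with sums of 11 to 50 cells in places.

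The members and lists were chosen with earlier results of these data known. Named genes are the members, up to 4 genes per list and direction with the largest change among those called, and the 5 genes most alike by Pearson correlation. Other genes named (list genes that did not pass, overlapping genes, cluster leaders) were chosen after their values were seen, and the rule for splitting mixed clusters was refined after the clusters were seen. Sums from the same tumor share an animal and so form pairs. Their deviations from class means, over 10867 genes, correlated at a median of 0.188 in 45 such pairs and -0.129 in 90 pairs from different tumors. Coordinates are those of GENCODE M21 on GRCm38.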

Additional observations from a re-analysis of the deposited data

How the results depend on the processing

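In the comparison of classes, all members kept a positive log2 fold change in all alternatives, and 0 of 130 values changed sign. Of the members, 3 were called on the authors' corrected counts with limma and 1 (Elavl4) with all other cells of a tumor summed, where log2 fold changes were 1.59 to 2.15, and 5 to 10 with a tumor left out. With each tumor as a replicate block 10 were called, and the block changed no call of a member other than Stmn2. The error of that block fit carries the limit given above for Stmn2. Among all genes, 1832 higher and 851 lower calls became 1348 lower with DESeq2 (57.9% of its calls higher, against 68.3%), 4065 higher with no filter (82.5%), 769 and 147 on corrected counts (84.0%), 1095 and 2807 with 1 sum of other cells (28.1%), 3797 higher with tumor-like cells that held a tumor marker UMI against other cells that held none, 2752 higher without the erythroid-like class, and 206 to 2043 higher and 137 to 550 lower with a tumor left out. In the comparison of cycling sets, each alternative called 0 members. Its 46 higher and 25 lower calls over all genes became 0 and 0 with no replicate block, 6 and 8 with DESeq2, 0 and 0 on corrected counts, 22 and 12 with S phase genes only, 30 higher without integration, and 18 to 39 higher and 19 to 31 lower with a tumor left out. The median share of tumor-like cells with a UMI of a member was 21.9% after thinning and 50.6% without. The causes of these changes were not tested. Depth limits the rare classes: 11 NK cell-like cells carry the sum of tumor 3.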

Other observations

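Further members were found outside tumor-like cells in tumor 1, in counts too small for a comparison. Elavl4 had 26 UMIs in 17 of the 89 plasmacytoid dendritic-like cells, which held a mean of 2.29 UMIs of the other members, against 1.51 in the 72 cells without Elavl4. Stmn2 had 37 UMIs in 8 of 16 mesothelial-like cells, at a median depth of 36576.5 UMIs. In the authors' corrected counts, the level in tumor-like cells moved by more than the spread between tumors for 5 members, all upward, with means over tumors of 1028 for Stmn2, 940.3 for Tubb3, 931 for Tubb2b, 448 for Gap43 and 280.3 for Mllt11, scaled like CPM, where the raw counts gave 873, 747, 763, 365 and 230 CPM.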
